A study of Homo sapiens with 4 samples.

Results

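The genes described here are 39 transcripts of autophagy, the core machinery that builds an autophagosome and the receptors that carry cargo into it. They were chosen by gene name from a list that follows the steps of the process. Each of the 39 names matched 1 of the 60617 genes in the deposited files, and all 39 passed the filter on low counts. The libraries came from U87MG, an established human glioblastoma cell line, cultured as spheres in DMEM/F12 with EGF and bFGF (20 ng/ml each), N2 and 2% B27. There were 2 libraries of spheres given abemaciclib, an inhibitor of the cell cycle kinases CDK4 and CDK6, and 2 libraries of untreated spheres, all at 14 days. No source used here gives the drug's dose or says whether the untreated spheres received its solvent. All libraries share the 1 cell line and the 1 medium, and nothing in the labels says that the replicates were separate cultures. The p-values therefore set the difference between the groups against the spread of these libraries within a group, which may be only technical. They do not extend to new cultures or other lines.

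Autophagy is the route by which cytoplasm, organelles and protein aggregates are enclosed in a membrane vesicle and delivered to the lysosome. A kinase complex around ULK1 starts it, a lipid kinase complex around BECN1 and PIK3C3 marks the membrane with the lipid PI3P, and WIPI proteins read that mark. Small proteins of the ATG8 family are then attached to the membrane by an enzyme cascade that resembles ubiquitin conjugation. Receptors such as SQSTM1 (p62) bind both the cargo and an ATG8 protein, and SNARE proteins such as STX17 fuse the finished vesicle with the lysosome. Transcript levels do not measure how much material passes along this route.

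The libraries held 23684260 to 33418075 expected counts each, and the least abundant of the 39 genes, ULK2, had 27 to 67 counts per library. Replicates differed by more than counting noise, as the chi-square divided by its degrees of freedom was 1.95 for the abemaciclib pair and 3.56 for the untreated pair, and each library was taken as 1 sample. Beyond counting noise the spread was small, with a coefficient of variation of 2.86% in the fit over all tested genes. Whether that spread is only technical was not tested. Mitochondrially encoded genes took 11.7% to 11.8% of the counts in abemaciclib libraries and 4.27% to 4.66% in untreated libraries. With those genes left out, the counts of called autophagy genes were 16 higher and 16 lower, the same numbers as with them. Of 10 markers of mesenchymal glioma lines all were detected, 2 higher and 8 lower after the drug, with a summed level (in CPM, counts scaled to library size and by TMM factors) of 18836 and 18813 CPM in abemaciclib libraries and 51824 and 51578 CPM in untreated libraries. GFAP, the defining astrocyte filament, had 4 and 10 counts in abemaciclib libraries and 7 and 8 in untreated libraries, and 4 of 5 astrocyte markers were below the filter. The astrocyte markers summed to 34.98 and 36.5 CPM in abemaciclib libraries and 61.8 and 61.2 CPM in untreated libraries, and the 1 that was tested was lower. The 8 macrophage and microglia markers summed to 7.06 and 6.26 CPM in abemaciclib libraries and 11.96 and 12.6 CPM in untreated libraries. Of the 8, 3 were past the filter (1 higher and 2 lower after the drug), and AIF1 was at 0 in all 4 libraries. The 5 endothelial markers summed to 11.8 and 11.99 CPM in abemaciclib libraries and 17.998 and 20.01 CPM in untreated libraries. Past the filter were 3 of the 5, with 1 higher and 1 lower. The 5 neuronal markers, all past it, summed to 69.6 and 66.2 CPM in abemaciclib libraries and 51.4 and 53.7 CPM in untreated libraries. Only 1 of them was called higher and 1 lower, so the sum does not describe each marker. The part of these shifts in the results below was not tested. In bulk RNA, a smaller number of cells that express a gene and less of its RNA per cell cannot be told apart.

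Of the 39 autophagy genes, 16 were higher and 16 lower in abemaciclib libraries, and 7 did not pass the threshold (edgeR quasi-likelihood F test, adjusted p under 0.05, with Benjamini-Hochberg adjustment over 17207 genes). Among all tested genes 38% were higher and 39.3% lower. The 32 called genes are 82.1% of the list, beside 77.3% of all tested genes, a share near the background and therefore no result about autophagy genes in particular. The median log2 fold change of the 39 genes was -0.004, beside -0.01 for all tested genes. A change of at least 1.5-fold was called in 18 of the 39 genes, beside 49.8% of all tested genes. Of these, 8 were higher, beside 23.3% of all tested genes, and 10 lower, beside 26.5%. A change of at least 2-fold was called in 5 of them, beside 31.2% of all tested genes. The 2 groups of libraries did not overlap in 35 of the 39 genes, beside 87.9% of all tested genes. The description below therefore concerns which genes moved which way. Of 5 initiation genes 4 were lower and none higher, beside 39.3% of all tested genes lower. With the DESeq2 Wald test 3 of them were lower, as the scarce ULK2 lost its call. Of 6 nucleation genes 5 were higher and none lower, beside 38% of all tested genes higher. The steps of membrane supply, conjugation, ATG8 proteins and receptors held both directions, and the 1 fusion gene did not pass. The steps were drawn up with earlier results of these data known. The genes of a step are not replicates of it, so steps were described side by side and no test between them was made.

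**Figure D1:**
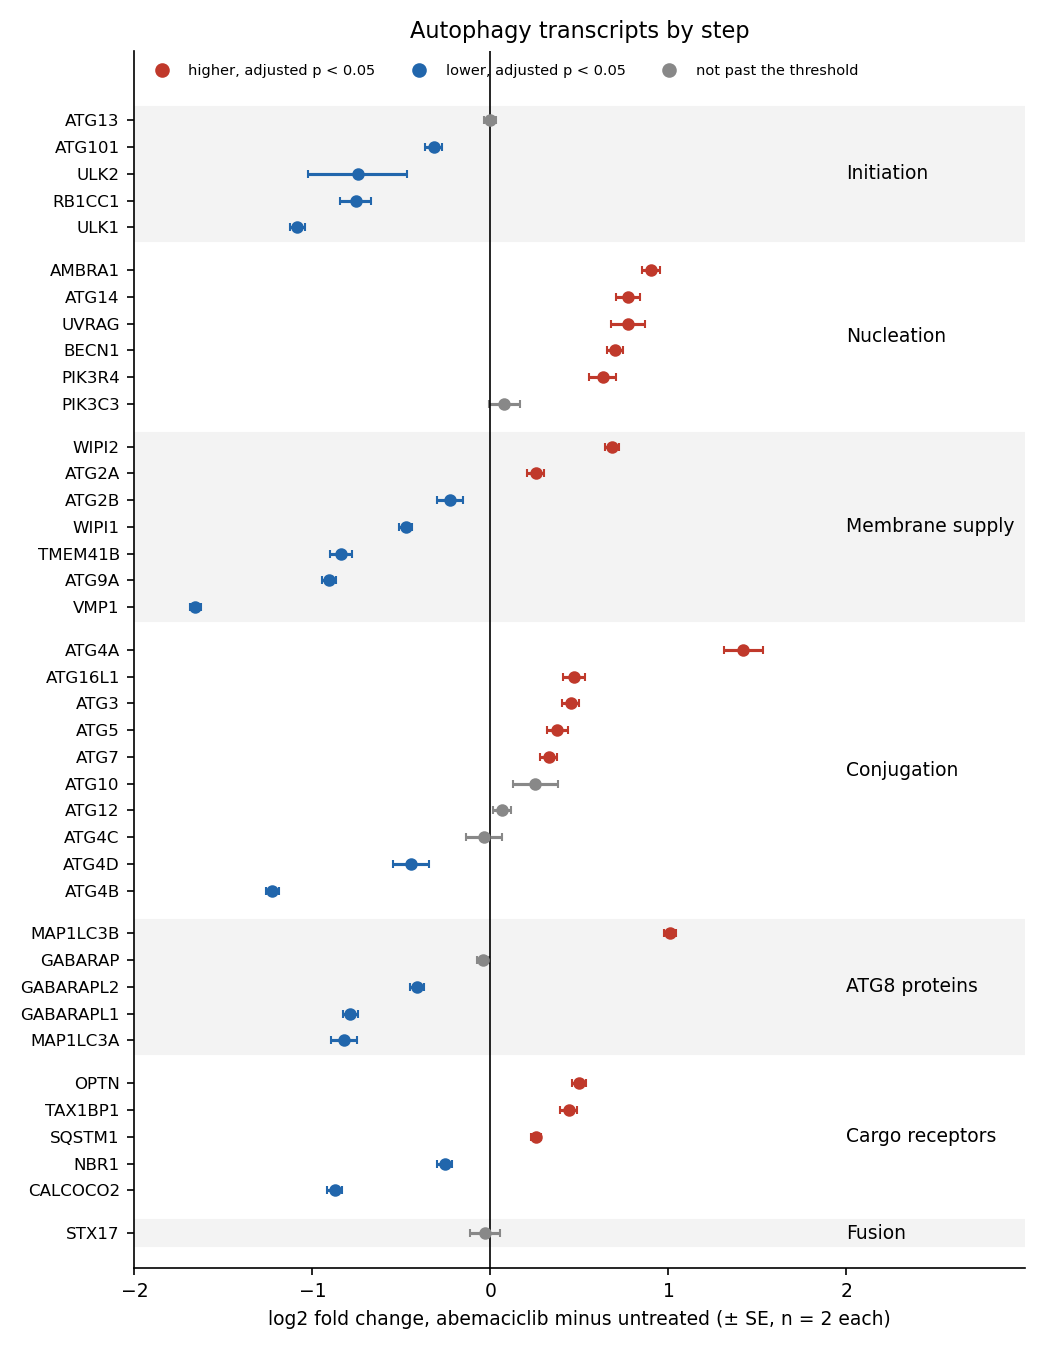
Log2 fold change (abemaciclib minus untreated, points, with the standard error as bars, n = 2 libraries each) of the 39 autophagy genes, ordered within each step, with red for higher, blue for lower and grey for not past an adjusted p of 0.05. Initiation genes sit at or left of 0 and nucleation genes at or right of it, while membrane supply, conjugation, ATG8 and receptor genes lie on both sides.

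Initiation depends on the ULK1 complex, in which ATG13, ATG101 and RB1CC1 (FIP200) hold the kinase ULK1 or its relative ULK2. ULK1 (ENSG00000177169, GRCh38 chromosome 12, 131894651 to 131923167) had 58.3 and 58.7 CPM in abemaciclib libraries, against 128 and 121 CPM in untreated libraries. The groups did not overlap, and ULK1 was 2.12-fold lower after the drug (-1.08 ± 0.04 on the log2 scale ± SE, edgeR adjusted p = 2.52e-21). Of all tested genes, 16.2% had a lower log2 fold change than ULK1. The scaffold RB1CC1 had 10.7 and 11.3 CPM in abemaciclib libraries, against 18.6 and 18.6 CPM in untreated libraries. It fell by 0.76 ± 0.09 on the log2 scale (edgeR adjusted p = 4.12e-09). ATG101, which stabilises ATG13, fell less, to 40.7 and 42.9 CPM in abemaciclib libraries, against 52.7 and 52.01 CPM in untreated libraries (-0.32 ± 0.05, edgeR adjusted p = 1.09e-06). ATG13, the adaptor through which the kinase is bound, had 128 and 129 CPM in abemaciclib libraries and 128 and 129 CPM in untreated libraries, and its groups overlapped (-0.00 ± 0.03 on the log2 scale, edgeR adjusted p = 0.920). ULK2 was scarce, with 1.12 and 1.12 CPM in abemaciclib libraries and 1.70 and 2.05 CPM in untreated libraries (-0.75 ± 0.28, edgeR adjusted p = 0.0161). That call rested on the setting: it was lost with the DESeq2 Wald test (adjusted p = 0.124), without abemaciclib replicate 2 (edgeR adjusted p = 0.0573) and without untreated replicate 2 (edgeR adjusted p = 0.151). Per kb of transcript, ULK1 exceeded ULK2 48.6 and 48.9 times in abemaciclib libraries and 70.04 and 55.1 times in untreated libraries.

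Of the 6 nucleation genes 5 rose, beside 38% of all tested genes. The class III PI3-kinase complex consists of the lipid kinase PIK3C3 (VPS34), the regulatory subunit PIK3R4 (VPS15) and BECN1 (Beclin 1), with ATG14 in the autophagy form and UVRAG in the endosomal form of the complex. BECN1 (ENSG00000126581, GRCh38 chromosome 17, 42810134 to 42833350) had 73.4 and 74.8 CPM in abemaciclib libraries, against 44.2 and 46.9 CPM in untreated libraries. It rose 1.63-fold (0.70 ± 0.05, edgeR adjusted p = 5.8e-15). AMBRA1, a scaffold that binds BECN1 and also serves a ubiquitin ligase that degrades D-type cyclins (ENSG00000110497, GRCh38 chromosome 11, 46396414 to 46594125), rose furthest of the 6. It had 59.8 and 60.6 CPM in abemaciclib libraries, against 31.8 and 32.5 CPM in untreated libraries (0.90 ± 0.05, edgeR adjusted p = 1.33e-16). ATG14 rose to 32.8 and 35.8 CPM in abemaciclib libraries, against 19.998 and 20.2 CPM in untreated libraries (0.77 ± 0.07), and UVRAG to 15.9 and 15.3 CPM in abemaciclib libraries, against 8.93 and 9.23 CPM in untreated libraries (0.77 ± 0.10). PIK3R4 had 24.7 and 23.6 CPM in abemaciclib libraries, against 14.9 and 16.2 CPM in untreated libraries (0.63 ± 0.08), and ATG14, UVRAG and PIK3R4 had edgeR adjusted p-values of 1.43e-08 or less. The catalytic subunit PIK3C3 had 15.9 and 15.03 CPM in abemaciclib libraries and 14.96 and 14.3 CPM in untreated libraries and did not pass the threshold, although its groups did not overlap either (0.08 ± 0.09, edgeR adjusted p = 0.416). Summed per kb of transcript, the 6 genes reached 64.3 and 65.2 CPM per kb in abemaciclib libraries and 38.3 and 40.1 in untreated libraries, whereas the 5 initiation genes summed to 80.1 and 81.9 CPM per kb in abemaciclib libraries and 103 and 101 in untreated libraries.

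The promoter of ATG14 is shown because it is 1 of 2 among these genes that hold CACGTG, the core of the site bound by the MiT/TFE factors (TFEB and its relatives), which are known to drive lysosomal and autophagy genes. The sequence is RefSeq's (GRCh38.p14), from 250 bases before to 50 after the start in that table, which can differ from the GENCODE 29 start of the gene (chr14:55411781-55412080, minus strand), with CACGTG in capitals, its first base 21 bases before the start.
ATG14 promoter: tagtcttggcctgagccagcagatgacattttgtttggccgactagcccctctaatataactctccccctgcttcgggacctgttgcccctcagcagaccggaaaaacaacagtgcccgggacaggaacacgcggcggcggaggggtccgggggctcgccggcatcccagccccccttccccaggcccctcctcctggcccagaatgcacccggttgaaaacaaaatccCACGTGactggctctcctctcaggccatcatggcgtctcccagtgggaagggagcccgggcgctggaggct
Promoters were found for 34 of the 39 genes (42 windows), and CACGTG, which reads the same on both strands, occurred in those of ATG14 and ATG3, 5.88% of the 34, beside 12.2% of 11426 tested genes with a promoter in the table and 7.26% of all 35116 promoters. The longer palindrome TCACGTGA, which contains CACGTG, occurred in ATG3 alone (2.94%, beside 2.11% of tested genes and 0.98% of all promoters). GTAAACA, read on both strands, a core of forkhead sites, occurred in CALCOCO2 alone (2.94%, beside 3.61% of tested genes and 3.42% of all promoters). TGACNNNGC, read on both strands, the core of antioxidant response elements, occurred in ATG101, CALCOCO2 and MAP1LC3B (8.82%, beside 19.3% of tested genes and 13.3% of all promoters). Such matches describe letters in a short window and are not shown to be bound.

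Membrane supply held the gene that fell furthest. ATG9A is a lipid scramblase on the vesicles that seed the membrane, ATG2A and ATG2B carry lipid into it, TMEM41B and VMP1 are scramblases of the endoplasmic reticulum, and WIPI1 and WIPI2 bind PI3P. VMP1 (ENSG00000062716, GRCh38 chromosome 17, 59707192 to 59842255) had 160.3 and 159 CPM in abemaciclib libraries, against 501 and 505 CPM in untreated libraries. It was 3.16-fold lower (-1.66 ± 0.03 on the log2 scale, edgeR adjusted p = 6.3e-29), and 9.80% of all tested genes had a lower log2 fold change. The miRNA gene MIR21, annotated on the same strand within VMP1, had 0 expected counts in all 4 libraries. These are libraries of poly-A RNA, so that value does not show whether MIR21 was expressed. Whether its primary transcript added reads to VMP1 was not tested. The VMP1 promoter is shown because this gene had the largest fall of the 39 (RefSeq, GRCh38.p14, chr17:59707404-59707703, plus strand), and it holds none of the 4 motifs, so no letters are in capitals. RefSeq places this start within the gene as GENCODE 29 gives it, so the window lies inside the interval above.
VMP1 promoter: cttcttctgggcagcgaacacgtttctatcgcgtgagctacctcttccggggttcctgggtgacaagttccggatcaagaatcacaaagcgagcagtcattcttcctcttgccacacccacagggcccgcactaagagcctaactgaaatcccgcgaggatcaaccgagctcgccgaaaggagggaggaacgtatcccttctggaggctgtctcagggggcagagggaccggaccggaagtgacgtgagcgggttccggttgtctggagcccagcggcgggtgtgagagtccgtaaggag
TMEM41B, the partner of VMP1, had 26.5 and 23.1 CPM in abemaciclib libraries, against 44.96 and 43.4 CPM in untreated libraries, and ATG9A had 66.6 and 69.3 CPM in abemaciclib libraries, against 129.7 and 126 CPM in untreated libraries. Both fell, by 0.84 ± 0.06 for TMEM41B (edgeR adjusted p = 3.32e-13) and by 0.91 ± 0.04 for ATG9A (edgeR adjusted p = 9.7e-20) on the log2 scale. WIPI1 and WIPI2 moved in opposite directions. WIPI1 fell to 122 and 116 CPM in abemaciclib libraries, against 159 and 171 CPM in untreated libraries (-0.48 ± 0.04, edgeR adjusted p = 2.81e-12). WIPI2, which recruits ATG16L1 to the membrane, rose to 106 and 102 CPM in abemaciclib libraries, against 64.96 and 64.8 CPM in untreated libraries (0.68 ± 0.04, edgeR adjusted p = 2.83e-16). The level of WIPI1 per kb was 1.32 and 1.31 times that of WIPI2 in abemaciclib libraries, against 2.83 and 3.04 times in untreated libraries. ATG2A rose slightly, with 69.99 and 69.3 CPM in abemaciclib libraries and 55.8 and 60.8 CPM in untreated libraries (0.25 ± 0.05, edgeR adjusted p = 9.19e-06). ATG2B had 24.9 and 22.9 CPM in abemaciclib libraries and 29.6 and 26.3 CPM in untreated libraries (-0.23 ± 0.07, edgeR adjusted p = 0.00485), a call that was lost with the DESeq2 Wald test (adjusted p = 0.0763), without abemaciclib replicate 2 (edgeR adjusted p = 0.105) and without untreated replicate 1 (edgeR adjusted p = 0.114).

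**Figure D2:**
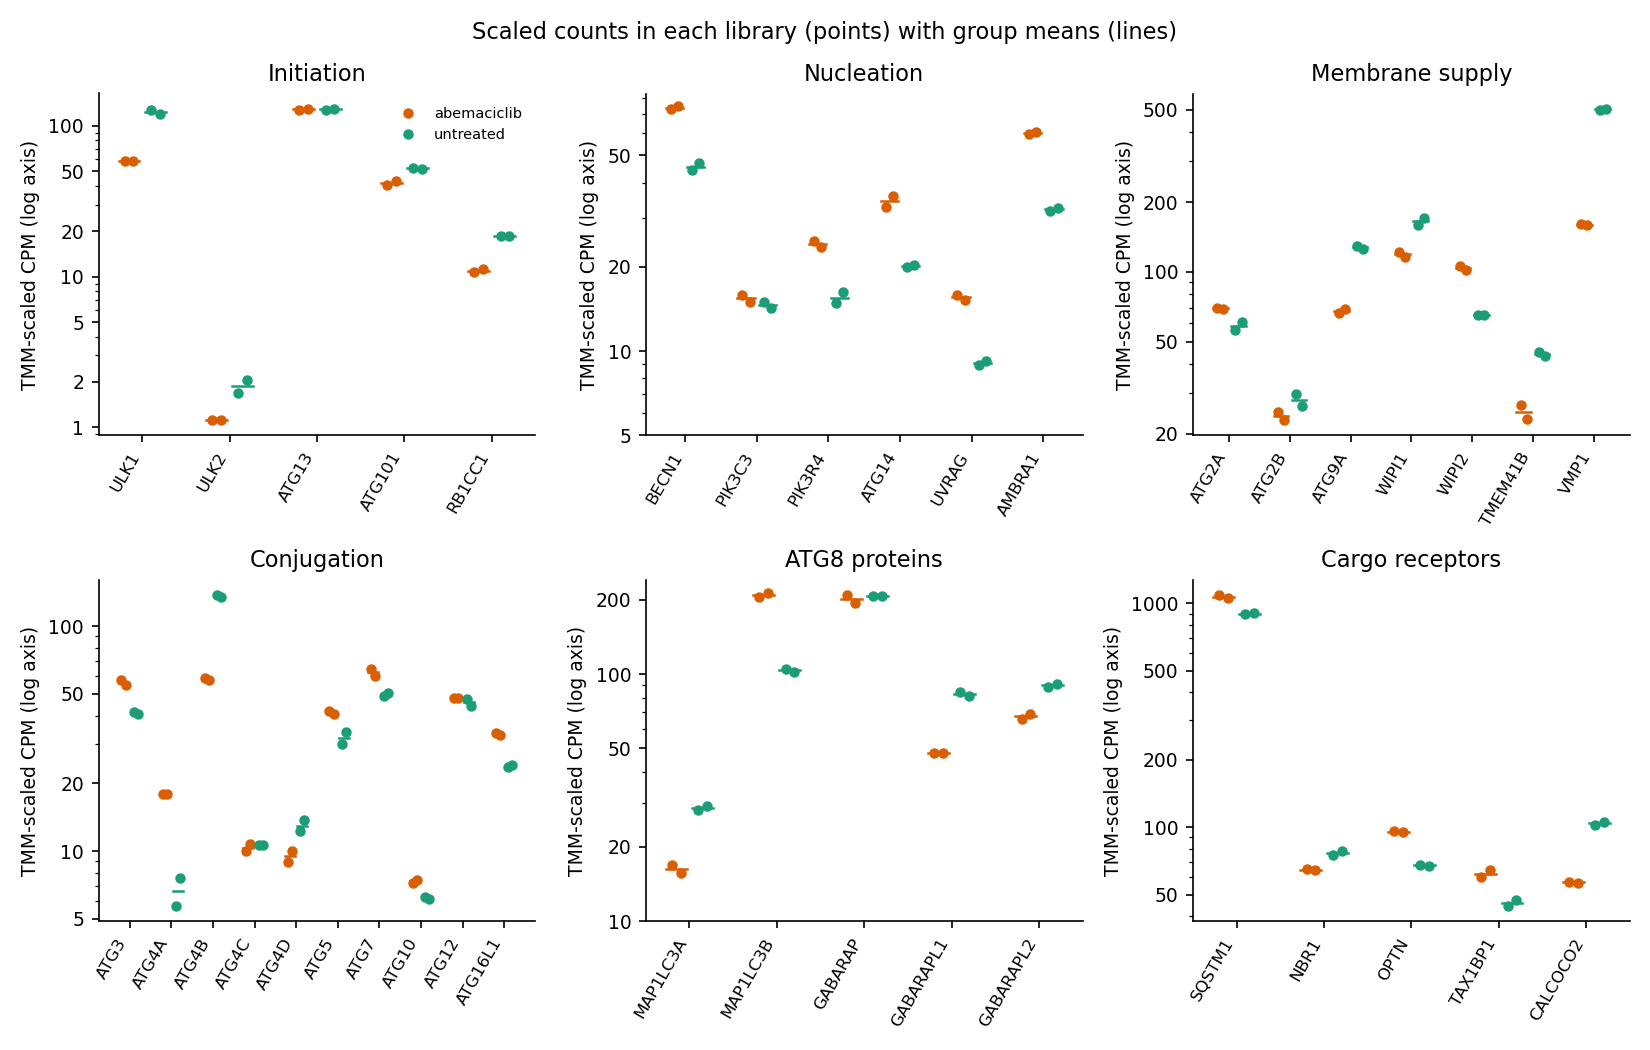
TMM-scaled CPM (log axis) of 38 of the 39 genes in each library, by step, with abemaciclib in orange and untreated in green, points for single libraries and lines for group means (n = 2). Replicates lie close together beside the shifts of ULK1, BECN1, VMP1, ATG4B, MAP1LC3B and CALCOCO2, whereas ATG13, ATG4C and GABARAP overlap between the groups. STX17 is not drawn.

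Of the 10 conjugation genes 5 rose, 2 fell and 3 did not pass, and the proteases among them split. The 7 called are 70% of the step, beside 77.3% of all tested genes. ATG7 activates ATG8 proteins and ATG12, ATG3 and ATG10 are the conjugating enzymes, and the ATG12, ATG5 and ATG16L1 proteins form the complex that directs lipidation. ATG3 had 57.4 and 54.7 CPM in abemaciclib libraries, against 41.3 and 40.6 CPM in untreated libraries (0.45 ± 0.05, edgeR adjusted p = 1.31e-09). ATG16L1 rose by 0.47 ± 0.06 on the log2 scale, to 33.5 and 32.7 CPM in abemaciclib libraries, against 23.7 and 24.02 CPM in untreated libraries (edgeR adjusted p = 8.06e-08). ATG5 (0.38 ± 0.06) and ATG7 (0.33 ± 0.05) also rose, with edgeR adjusted p-values of 1.66e-06 or less, and each was under 1.5-fold. ATG12, which ATG10 attaches to ATG5, had 47.9 and 47.9 CPM in abemaciclib libraries and 47.6 and 44.2 CPM in untreated libraries (0.06 ± 0.05, edgeR adjusted p = 0.254). ATG10 had 7.23 and 7.44 CPM in abemaciclib libraries and 6.22 and 6.11 CPM in untreated libraries (0.25 ± 0.12, edgeR adjusted p = 0.0652). Neither passed the threshold, though both did when libraries were scaled by size alone (edgeR adjusted p = 0.0266 for ATG10 and 0.0376 for ATG12).

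The ATG4 proteases expose the C-terminal glycine of ATG8 proteins and later cut them from the membrane. ATG4A (ENSG00000101844, GRCh38 chromosome X, 108091668 to 108154671) had 17.99 and 18.01 CPM in abemaciclib libraries, against 5.70 and 7.61 CPM in untreated libraries. It rose 2.68-fold, the largest rise of the 39 genes (1.42 ± 0.11, edgeR adjusted p = 1.18e-12). ATG4B, the most active of these proteases (ENSG00000168397, GRCh38 chromosome 2, 241637213 to 241673857), had 58.9 and 57.5 CPM in abemaciclib libraries, against 137 and 135 CPM in untreated libraries. It was 2.34-fold lower (-1.23 ± 0.04, edgeR adjusted p = 3.07e-23). ATG4D fell by 0.45 ± 0.10 on the log2 scale (edgeR adjusted p = 2.56e-04), with 8.93 and 10.04 CPM in abemaciclib libraries and 12.2 and 13.7 CPM in untreated libraries. ATG4C did not pass (-0.04 ± 0.10, edgeR adjusted p = 0.749), and its groups overlapped. Per kb of transcript, ATG4A made up 21.4% and 21.3% of the ATG4 total in abemaciclib libraries, against 4.10% and 5.40% in untreated libraries. ATG4B made up 56.5% and 54.6% in abemaciclib libraries, against 79.4% and 77.01% in untreated libraries, and stayed the most abundant of the 4 per kb in each library. The ratio of ATG4A to ATG4B per kb was 0.379 and 0.389 in abemaciclib libraries and 0.0517 and 0.0701 in untreated libraries, a log2 difference of 2.67 (exact permutation p = 0.333, two-sided, the smallest that 2 libraries against 2 allow and the value for each of the 8 paralog pairs compared, before and after Benjamini-Hochberg adjustment). Such a ratio within a library does not depend on how the libraries were scaled. The promoters of ATG4A, which had the largest rise, and of ATG3, the other holder of CACGTG, follow (RefSeq, GRCh38.p14). The ATG4A window (chrX:108091528-108091827, plus strand) holds none of the 4 motifs. The ATG3 window (chr3:112561913-112562212, minus strand) holds CACGTG 2 times, in capitals, with first bases 18 bases before the start and at base 6 of the transcript.
ATG4A promoter: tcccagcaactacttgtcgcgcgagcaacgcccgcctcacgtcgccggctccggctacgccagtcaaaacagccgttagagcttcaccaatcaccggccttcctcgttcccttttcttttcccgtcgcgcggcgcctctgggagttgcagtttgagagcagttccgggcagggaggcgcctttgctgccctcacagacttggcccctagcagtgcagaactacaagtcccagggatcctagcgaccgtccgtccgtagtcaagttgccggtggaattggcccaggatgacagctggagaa
ATG3 promoter: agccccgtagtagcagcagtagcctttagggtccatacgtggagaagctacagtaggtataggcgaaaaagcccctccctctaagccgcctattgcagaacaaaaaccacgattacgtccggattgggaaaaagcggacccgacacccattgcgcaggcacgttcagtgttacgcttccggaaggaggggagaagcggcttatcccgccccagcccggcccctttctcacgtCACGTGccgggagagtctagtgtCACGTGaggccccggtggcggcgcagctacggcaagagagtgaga

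ATG8 proteins coat the growing membrane and bind receptors. MAP1LC3B (LC3B), the member commonly used as an autophagosome marker (ENSG00000140941, GRCh38 chromosome 16, 87383995 to 87404779), had 204 and 212 CPM in abemaciclib libraries, against 104 and 102 CPM in untreated libraries. It rose 2.01-fold (1.01 ± 0.03, edgeR adjusted p = 3.2e-22) and was the 1 ATG8 gene of 5 that did. MAP1LC3A fell to 16.9 and 15.8 CPM in abemaciclib libraries, against 28.3 and 29.2 CPM in untreated libraries (-0.82 ± 0.07, edgeR adjusted p = 1.07e-11). GABARAPL1 also fell, with 47.9 and 48.001 CPM in abemaciclib libraries and 84.4 and 81.3 CPM in untreated libraries (-0.79 ± 0.04, edgeR adjusted p = 8.58e-17), and GABARAPL2 fell by less (-0.41 ± 0.04, edgeR adjusted p = 1.09e-10). GABARAP had 209 and 193 CPM in abemaciclib libraries and 207 and 206 CPM in untreated libraries, and its groups overlapped (-0.04 ± 0.04, edgeR adjusted p = 0.284). The ATG8 sum per kb was 323 and 318 CPM per kb in abemaciclib libraries and 346 and 345 in untreated libraries. Without the scaling to length the order was the other way, with sums of 544 and 538 CPM in abemaciclib libraries and 513 and 510.3 CPM in untreated libraries. MAP1LC3B took 23.5% and 24.8% of the sum per kb in abemaciclib libraries, against 11.2% and 11.02% in untreated libraries, and GABARAPL1 took 11.8% and 11.9% in abemaciclib libraries, against 19.3% and 18.6% in untreated libraries. Per kb, GABARAP was the most abundant of the 5 in each library. MAP1LC3B came next in abemaciclib libraries, at 77.3 ± 2.01 CPM per kb (mean ± SD, n = 2) beside 67.4 ± 2.23 for GABARAPL2, and stood below both GABARAPL2 (89.8 ± 1.46) and GABARAPL1 (65.5 ± 1.69) in untreated libraries, at 38.4 ± 0.532. The ratio of MAP1LC3A to MAP1LC3B per kb was 0.197 and 0.176 in abemaciclib libraries and 0.643 and 0.676 in untreated libraries (log2 difference -1.82, exact permutation p = 0.333). The expected counts of MAP1LC3B are not whole in any library, as happens where reads are divided among genes. Its near-identical relative MAP1LC3B2 was listed at 102 and 159.8 expected counts in abemaciclib libraries and 60.02 and 104 in untreated libraries, beside 4909 and 7166 in abemaciclib libraries and 2817 and 3348 in untreated libraries for MAP1LC3B.

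**Figure D3:**
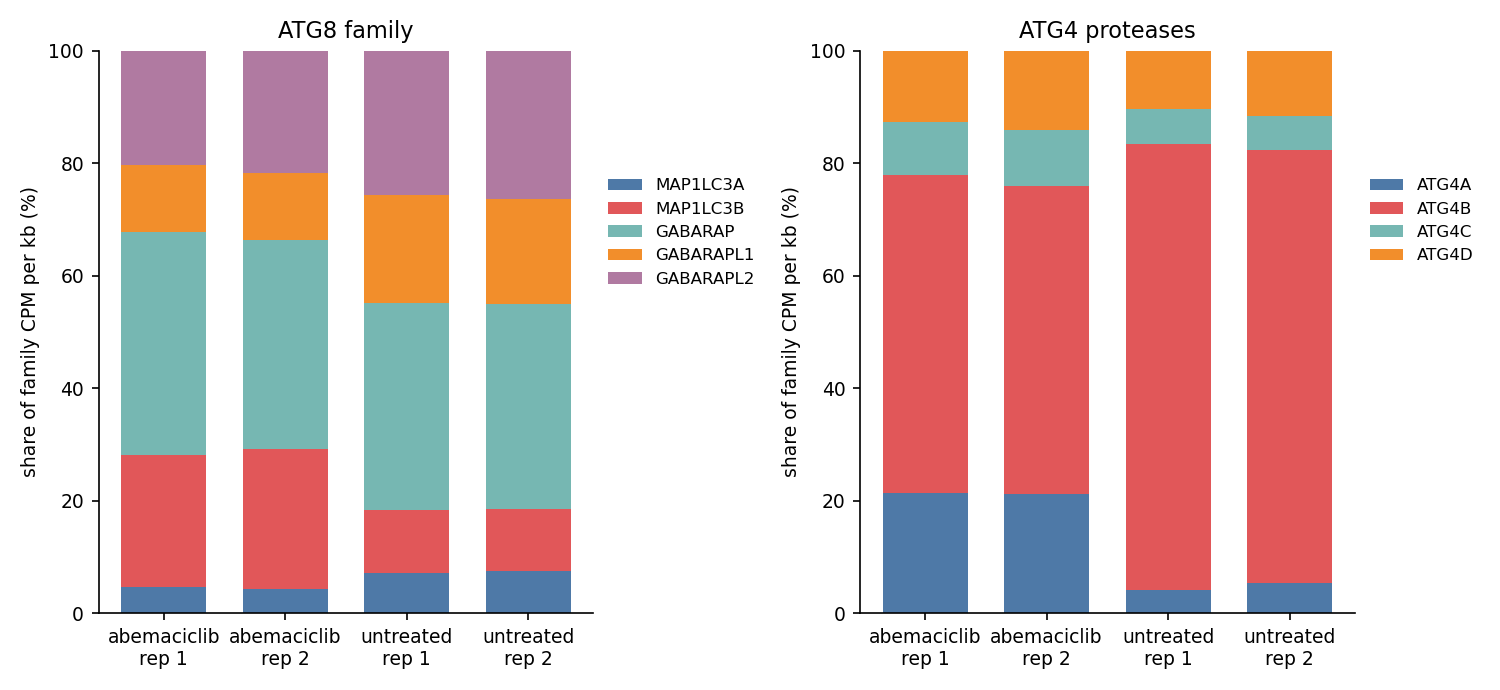
Share of each gene in the summed level of its family, in CPM per kb of transcript (percent), in each library, for the ATG8 genes on the left and the ATG4 proteases on the right. MAP1LC3B takes a larger part of the ATG8 sum, and ATG4A of the ATG4 sum, in both abemaciclib libraries than in either untreated library.

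Cargo receptors were divided, 3 higher and 2 lower, beside 38% of all tested genes higher and 39.3% lower. SQSTM1 (p62), which collects ubiquitinated proteins (ENSG00000161011, GRCh38 chromosome 5, 179806398 to 179838078), had 1089 and 1056 CPM in abemaciclib libraries, against 893 and 903 CPM in untreated libraries. The groups did not overlap, but the rise was small at 1.19-fold (0.26 ± 0.03, edgeR adjusted p = 3.83e-09). Per kb SQSTM1 made up 81.2% and 80.6% of the sum over the 5 receptors in abemaciclib libraries and 77.97% and 77.7% in untreated libraries. OPTN (optineurin), a receptor for damaged mitochondria and bacteria, rose to 96.2 and 94.7 CPM in abemaciclib libraries, against 67.9 and 67.2 CPM in untreated libraries (0.50 ± 0.04, edgeR adjusted p = 6.24e-13). TAX1BP1, which acts with SQSTM1 on protein aggregates, rose to 59.8 and 64.4 CPM in abemaciclib libraries, against 44.5 and 47.2 CPM in untreated libraries (0.44 ± 0.05, edgeR adjusted p = 2.05e-09). CALCOCO2 (NDP52, ENSG00000136436, GRCh38 chromosome 17, 48830988 to 48866522), a relative of TAX1BP1 that also binds damaged mitochondria and bacteria, had 57.2 and 56.4 CPM in abemaciclib libraries, against 102 and 106 CPM in untreated libraries. It was 1.83-fold lower (-0.88 ± 0.04, edgeR adjusted p = 7.73e-19), the 1 receptor whose change reached 1.5-fold. NBR1 fell slightly, with 64.8 and 64.3 CPM in abemaciclib libraries and 75.4 and 78.6 CPM in untreated libraries (-0.26 ± 0.04, edgeR adjusted p = 2.02e-06). STX17, the fusion SNARE, had 15.2 and 16.2 CPM in abemaciclib libraries and 16.1 and 16.1 CPM in untreated libraries, its groups overlapped and it did not pass (-0.03 ± 0.08, edgeR adjusted p = 0.749).

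Of the 39 genes, 19 share exon sequence with a gene annotated on the opposite strand in GENCODE 29, among them BECN1 (CNTD1 and PSME3), VMP1 (PTRH2), ATG4B (THAP4), SQSTM1 (MGAT4B and MRNIP), WIPI1 (ARSG), ATG13 (HARBI1) and ATG7 (VGLL4). The library kit keeps the strand, but no source used here gives the strand setting of the counting, and reads of such partners cannot be told apart. None of the 39 overlapped exons of another gene on its own strand, and 3 (ATG9A, MAP1LC3B and GABARAP) had expected counts that were not whole in at least 1 library.

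Other genes of the pathway were taken from 3 lists, with the named ones picked as the 3 that rose and the 3 that fell furthest. Of 28 accessory and fusion genes 21 rose, 6 fell and 1 did not pass, beside the 38% and 39.3% of all tested genes that were higher and lower. Their median log2 fold change was 0.71, beside -0.01 for all tested genes. MAP1LC3C, an ATG8 gene outside the 39, had 3.61 and 3.51 CPM in abemaciclib libraries, against 0.333 and 0.550 CPM in untreated libraries (2.97 ± 0.29, edgeR adjusted p = 1.2e-10). MAP1LC3C was scarce and lay near the floor of the filter on low counts in untreated libraries. It passed that filter through its abemaciclib libraries, so the size of its rise is uncertain and its p-value is no support. VPS18, a subunit of the HOPS complex that tethers vesicles to lysosomes, had 118 and 112 CPM in abemaciclib libraries, against 36.6 and 38.3 CPM in untreated libraries (1.61 ± 0.04, edgeR adjusted p = 1.05e-24). PLEKHM1, an adaptor that links HOPS to ATG8 proteins and is near-identical over part of its length to its pseudogene PLEKHM1P1, which makes its value uncertain, had 167 and 161 CPM in abemaciclib libraries, against 53.9 and 53.96 CPM in untreated libraries (1.60 ± 0.04, edgeR adjusted p = 2.28e-26). The genes that fell furthest in this list were ATG9B (-2.15 ± 0.36), a relative of ATG9A, ATG16L2 (-1.52 ± 0.08), a relative of ATG16L1, and WDR45B (-0.97 ± 0.04), which binds PI3P like WIPI1 and WIPI2. ATG9B was scarce, with 0.249 and 0.502 CPM in abemaciclib libraries and 1.67 and 1.83 CPM in untreated libraries. It passed the filter through its untreated libraries, so the size of its fall is uncertain too.

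Receptors for mitochondria, the endoplasmic reticulum and other cargo, listed together with TBK1 and PINK1, held both directions. Of these 20 genes 9 rose, 6 fell and 5 did not pass (median 0.11). The 15 called are 75% of the list, near the 77.3% of all tested genes. BNIP3 fell to 29.5 and 30.7 CPM in abemaciclib libraries, against 288 and 266 CPM in untreated libraries. Its relative BNIP3L had 52.2 and 52.5 CPM in abemaciclib libraries, against 167 and 160.0 CPM in untreated libraries (-1.64 ± 0.04, edgeR adjusted p = 1.67e-26). CALCOCO1, a receptor for the endoplasmic reticulum and Golgi and a relative of CALCOCO2, fell as well, to 71.9 and 69.4 CPM in abemaciclib libraries, against 166 and 164 CPM in untreated libraries (-1.23 ± 0.04, edgeR adjusted p = 7.78e-24). BCL2L13 (0.79 ± 0.04), TOLLIP (0.76 ± 0.04) and NUFIP1 (0.72 ± 0.11) rose furthest, each by under 2-fold. Of 29 genes of upstream control 14 rose, 10 fell and 5 did not pass (median 0.16), beside 77.3% of all tested genes called. The number lower was 7 with the DESeq2 Wald test and 7 to 9 when 1 library was left out. DDIT4 (REDD1), an inhibitor of mTORC1 that stress induces, had 165 and 154 CPM in abemaciclib libraries, against 2029 and 1989.6 CPM in untreated libraries (-3.65 ± 0.04, edgeR adjusted p = 7.08e-36). The transcription factors FOXO1 (-1.17 ± 0.15) and ATF4 (-0.70 ± 0.03) also fell, while BCL2 (1.18 ± 0.28), the AMPK subunit PRKAA2 (1.09 ± 0.21) and SESN2 (1.09 ± 0.05) rose. BCL2 was scarce, with 2.20 and 2.04 CPM in abemaciclib libraries, against 0.778 and 1.07 CPM in untreated libraries. So was PRKAA2, with 5.23 and 3.48 CPM in abemaciclib libraries, against 1.96 and 2.05 CPM in untreated libraries. The MiT/TFE factors in this list were singled out after their values were seen. TFEB had 7.77 and 7.53 CPM in abemaciclib libraries and 7.78 and 7.79 CPM in untreated libraries (-0.03 ± 0.12, edgeR adjusted p = 0.835). TFE3, the most abundant of them in CPM, had 172 and 158 CPM in abemaciclib libraries, against 149 and 146 CPM in untreated libraries (0.16 ± 0.04, edgeR adjusted p = 2.19e-04). MITF had 3.49 and 4.81 CPM in abemaciclib libraries, against 2.74 and 2.44 CPM in untreated libraries, and it rose too (0.70 ± 0.19, edgeR adjusted p = 0.00146).

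**Figure D4:**
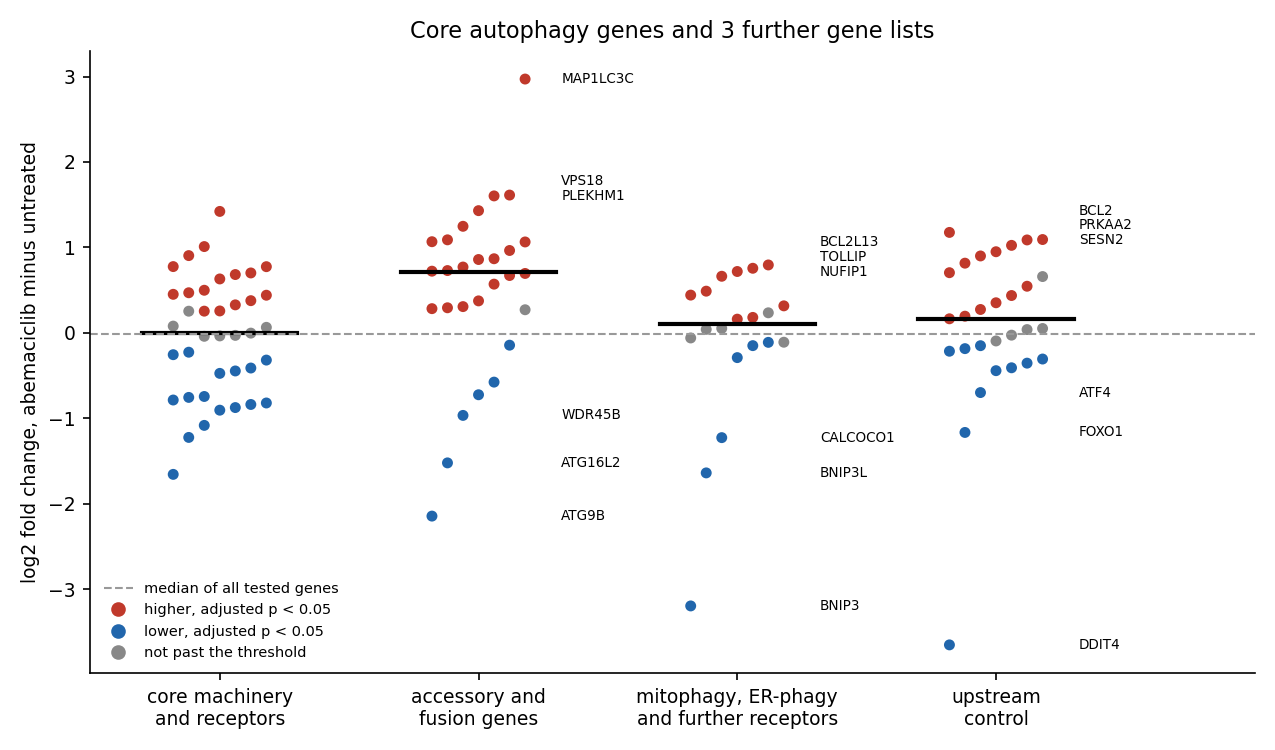
Log2 fold change (abemaciclib minus untreated) of the 39 core genes and of 3 further lists, with 1 point per gene coloured by its call, black lines for list medians, a dashed line for the median of all tested genes, and names for the 3 genes that rose and the 3 that fell furthest in each further list. The accessory and fusion genes have a median of 0.71, and the core genes lie on both sides of 0 between -1.66 and 1.42.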

How the data were processed

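Poly-A RNA of 4 libraries was measured with a stranded mRNA kit after Trizol extraction, per the labels' protocols. Per the file headers, the authors deposited expected counts, estimates per gene that need not be whole, with no scaling for depth or length. GRCh38, RSEM 1.3.1 and STAR 2.7.2b are listed by the submitters' processing notes, and the sources used here do not state the annotation release, trimming or strand setting. Each sample's title gave its group and replicate number.

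Expected counts were rounded to whole numbers and tested with edgeR 4.0.16 (R 4.3.3, limma 3.58.1) by the two-sided quasi-likelihood F test, with filterByExpr, TMM scaling, robust estimation and group as the only term (2 residual degrees of freedom per gene). Benjamini-Hochberg adjustment covered all 17207 genes that passed the filter, and each standard error is the size of the log2 fold change over the root of F. The fit was also run on simulated data in which only a small part of the genes changed, unlike the 77.3% called here. That run cannot show how the scaling behaves under so broad a shift. Levels between genes were compared per kb of transcript, using the median length of the principal basic transcripts in GENCODE 29 (58444 of 60617 identifiers matched, 96.4%). Promoters came from RefSeq.

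Alternatives were no filter, DESeq2 size factors, library size alone, omission of mitochondrially encoded genes, the DESeq2 1.42.0 Wald test, limma-voom, unrounded values, a replicate block and leaving out each library. The genes, step groups, further lists and motifs were chosen with earlier results of these data known. Of the further lists, the 3 genes with the largest rise and the 3 with the largest fall past an adjusted p of 0.05 are named, and 1 gene listed at the design stage is not reported here.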

Additional observations from a re-analysis of the deposited data

How the results depend on the processing

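Of 468 member values over 12 alternatives, 460 kept their side of the threshold, 6 lost the call and 2 gained it. No called gene changed direction, though genes near 0 such as ATG13 changed sign, and 30 of the 32 called genes were called in every alternative. The lost calls were those of ULK2 and ATG2B (3 each), and the gained ones those of ATG10 and ATG12. The count of called members ranged from 16 to 18 higher and 14 to 16 lower, and the share of all genes called from 47.3% without a filter (29163 genes tested, the members' counts being 16 and 16) and 65.3% with the DESeq2 Wald test (16 and 14) to 77.3%, so how near the members' share lies to the background depends on the setting. The median log2 fold change of the members, -0.004, was 0.0099 without a filter, 0.0033 with DESeq2 size factors and with the DESeq2 Wald test, and 0.0498 with library size alone, and ran from -0.0082 to 0.024 when 1 library was left out, and its sign therefore depends on the setting. No scaling moved the median of all genes by over 0.1. Each scaling sets the libraries to a common centre or total, so a small move was largely fixed beforehand. It cannot show that the scaling holds under so broad a shift. Leaving out 1 library left 16 members higher and 14 to 16 lower, beside 69.5% to 71.1% of all genes called. The log2 difference of ULK1 over ULK2 ran from -0.52 to -0.18 and that of ATG2A over ATG2B from 0.34 to 0.63, with the smaller size of both without untreated replicate 1. With 1 library in a group, the lone library is assumed to vary like the others.

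Same-numbered libraries did not deviate together (correlation 0.0116 over 12139 genes), so the numbers were not taken as pairs. With the replicate block, 16 members were higher and 16 lower, and no member's call changed.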

Other observations

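The HOPS complex, which tethers autophagosomes and late endosomes to the lysosome, had 6 subunits in the list of accessory and fusion genes. They were singled out after their values were seen. Of the 6, 5 were higher after abemaciclib and 1 was lower, with a median log2 fold change of 0.97, beside 38% higher, 39.3% lower and a median of -0.01 among all tested genes. VPS41, which binds the small GTPases of the vesicle, had 52.4 and 53.3 CPM in abemaciclib libraries, against 18.7 and 20.5 CPM in untreated libraries (1.43 ± 0.06, edgeR adjusted p = 8.45e-20). VPS33A, the subunit that binds SNARE proteins, had 43.3 and 46.8 CPM in abemaciclib libraries, against 19.3 and 18.8 CPM in untreated libraries (1.25 ± 0.06). VPS39 (0.69 ± 0.04) and VPS11 (0.57 ± 0.06) rose by less, and VPS16, which binds VPS33A, fell to 22.7 and 19.9 CPM in abemaciclib libraries, against 34.1 and 35.7 CPM in untreated libraries (-0.73 ± 0.07, edgeR adjusted p = 4.89e-11). The SNARE genes SNAP29 (0.96 ± 0.06) and YKT6 (0.73 ± 0.03) rose, whereas STX17, the partner of SNAP29, and VAMP8 (0.27 ± 0.35, edgeR adjusted p = 0.485) did not pass the threshold.

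AMBRA1 and ATG13 lie close together on chromosome 11, with 23401 bases between them that hold most of HARBI1. AMBRA1 rose (0.90 ± 0.05) and ATG13 did not pass (-0.00 ± 0.03). HARBI1, which reads toward AMBRA1 and shares exon sequence with ATG13 on the opposite strand, had 6.23 and 6.35 CPM in abemaciclib libraries, against 2.44 and 3.18 CPM in untreated libraries (1.15 ± 0.16, edgeR adjusted p = 1.77e-07). The pair was singled out after the values were seen.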
